A study of Mus musculus with 31 samples.

Results

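Transporters of the liver cell membrane that carry drugs, organic anions and sterols were examined as the probes of the deposited liver table whose array gene name belongs to the Slco, Slc22a, Abca, Abcb, Abcc or Abcg families. They were 111 of the 36057 probes and read 65 genes. The uptake families Slco and Slc22a held 51 probes of 29 genes, and the efflux families Abca, Abcb, Abcc and Abcg held 60 probes of 36 genes. The array design carries 167 probes of these names, and the other 56 were not in the table. Of these 56 probes, 41 passed the spot filter on 0 arrays. Of the 111 probes, 92 passed on at least 26 of the 31 arrays, and 19 were kept only because they passed on at least 6 arrays of 1 group.

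ChREBP, encoded by Mlxipl, is a transcription factor activated by glucose, and its short isoform ChREBPβ starts from a separate first exon. The mice were C57BL6/J males, and the RNA of each liver was read on its own one-color Agilent array. The groups were 7 total ChREBP-KO mice (Mlxipl-null, lacking ChREBPα and ChREBPβ), 8 WT littermates of that line, 8 ChREBPβ-deficient mice and 8 WT littermates of that line. ChREBPβ deficiency was made by CRISPR/Cas9 removal of Mlxipl exon 1b in the embryo, and neither deficiency was limited to the liver. All mice, including the WT littermates, ate a regular diet, were fasted for 24 hours and were then refed for 18 hours with food and 20% glucose in the drinking water. Their ages are not given in the sources used here.

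A hepatocyte takes up bile acids, hormones, drugs and other organic ions from the blood through SLCO carriers (the OATP proteins) and SLC22 carriers (organic cation, anion and carnitine transporters). ABC transporters use ATP to move compounds and lipids out of the cell or between its compartments. Those of the canalicular membrane make bile, and those of the sinusoidal membrane return conjugates and cholesterol to the blood. Nuclear receptors such as CAR, PXR, FXR and LXR are known to control many of these genes.

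The probes are 60 bases long, and 30 bases from the middle of each (bases 16 to 45) are printed for the genes described first, because the probe sequence decides which transcript a value reads. Positions are those of the array annotation on mouse build mm9. The first of these sequences reads the transporter with the largest difference of all, at chr17:46569272-46569331 on the minus strand.
Slc22a7: tctccaaaaacaggacaactcctgcagcac
Slco2b1: gaattttgaagtcactttcaccaagacaag
Slc22a30: ccctgaggggaatattcatgttgactgctg
Slc22a28: atgtttggtaatagtggattattcctggcc
Slco1b2: tgctattctctcctgaagtctctgcaatgg
Abcc3: ctggtgctgtctgagtccactgatgaaata
The other probes lie at chr7:106807008-106807067 (Slco2b1, minus strand), chr19:8418998-8419057 (Slc22a30, minus strand), chr19:8137911-8137970 (Slc22a28, minus strand), chr6:141634476-141634535 (Slco1b2, plus strand) and chr11:94204612-94204671 (Abcc3, minus strand). Exon and UTR positions on this build were not used here.

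Related transporters can share sequence, so the probes of different genes were laid against each other without gaps, in 6030 pairs. In 2 pairs at least 40 of 60 bases were identical, and outside those pairs the highest number was 32. Only probes were compared, so a match of a probe to another part of a related transcript was not searched for. The closest pair was the second probe of Slc22a28 and a further probe of Slc22a30, shown here over 30 bases with the bases that differ in capitals.
Slc22a28: attGtAttcaggacatggtgacaattttcC
Slc22a30: attTtGttcaggacatggtgacaattttcT
The signal of these probes may hold RNA of both genes. The other pair was Slc22a21 with the second probe of Slc22a5, with 43 identical bases. A single probe named for Slco2b1 lies on the strand opposite to the gene and is not read as Slco2b1 below.

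Deficiency of both ChREBP isoforms moved many transporters. Upward calls were more frequent among the pooled uptake probes than among the pooled efflux probes, mainly through the Slc22a family. ChREBPβ deficiency alone moved none past the threshold (limma, Benjamini-Hochberg adjusted p under 0.05 over all probes). In total ChREBP-KO mice 40 of the 111 probes were higher (36.0%) and 12 were lower (10.8%), against 14.5% and 14.6% of all probes. These calls came from 25 and 10 of the 65 genes, and over all genes 17.3% and 17.1% had a probe called higher or lower. With a fold of at least 1.5 required in addition 19 members were higher and 3 lower, against 2.71% and 3.36% of all probes. The members' median log2 difference was 0.13, against 0.0083 for all probes.

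Of the 51 uptake probes 25 were higher (49.0%) and 2 were lower (3.92%), with a median log2 difference of 0.25. Of the 60 efflux probes 15 were higher (25.0%) and 10 were lower (16.7%), with a median of 0.09. With 1 array left out at a time the efflux median ran from 0.03 (without total ChREBP-KO mouse 1) to 0.11, and the number of efflux probes called higher fell to 10 without WT littermate 4. The efflux share of lower calls was close to the 14.6% of all probes. Among probes that passed on all 31 arrays 16.9% of all were higher and 16.7% were lower, and there 15 of 29 uptake probes were higher and 2 lower, against 12 and 7 of 35 efflux probes. In 17 members every total ChREBP-KO value was above every WT littermate and in 3 every value was below, while 3.26% and 4.14% of all probes did so. The probes of 1 gene and the genes of 1 cluster are not independent measurements.

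**Figure D1:**
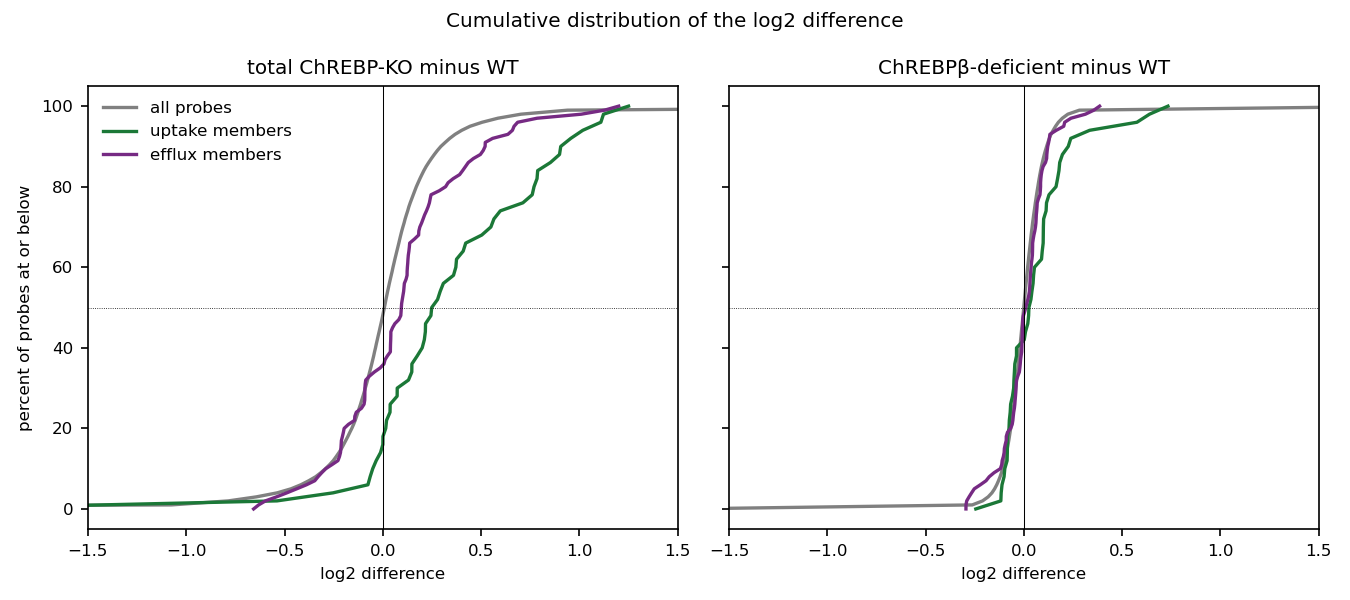
Cumulative share of probes (vertical axis, percent) at or below each log2 difference (horizontal axis, drawn from -1.5 to 1.5, so that values beyond lie outside) for all probes, uptake members and efflux members, in total ChREBP-KO mice (left) and ChREBPβ-deficient mice (right). On the left the uptake curve crosses 50% at 0.25, the efflux curve at 0.09 and the curve of all probes near 0, and on the right the 3 curves cross 50% near 0.

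In several libraries of the total ChREBP-KO line markers of other cell types stood higher than in the rest of their group. The summed marker level is given as the mean log2 signal of a list. Intestinal markers, of which 3 of 6 were measured, stood at 11.16 in total ChREBP-KO mouse 5 and at 8.22 to 8.66 in the other 6 mice of the group, with 7.93 to 8.32 in the WT littermates. Cholangiocyte markers (7 of 7 measured) stood at 9.17 and 8.42 in total ChREBP-KO mice 5 and 1 and at 7.45 to 8.01 in the WT littermates. Exocrine pancreas markers (4 of 9 measured) reached 12.71 in WT littermate 2, against 10.52 to 11.89 in the others. Adipocyte markers (6 of 7 measured) stood at 9.61 in total ChREBP-KO mouse 6 and at 6.96 to 7.35 in the rest of that group. In WT littermates 5 and 2 they stood at 9.18 and 8.93, against at most 7.24 in the others, and in the ChREBPβ line they ranged from 7.69 to 9.14. The part of these cells in the results was not tested beyond leaving arrays out. With total ChREBP-KO mice 1 and 5 and WT littermate 2 left out 21 uptake probes were higher and 2 lower, and 12 efflux probes were higher and 6 lower. The counts were 21 and 2, and 12 and 6, when total ChREBP-KO mouse 6 and WT littermate 5 were left out too.

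Pericentral hepatocyte markers were higher as a list, with 6 of 9 called higher, against 14.5% of all probes. Their levels were 12.09 to 12.98 in total ChREBP-KO mice and 11.55 to 12.32 in their WT littermates. Of the 6 stellate cell markers 3 were called higher, against the same 14.5%, with a median log2 difference of 0.45 over the list. Of the 8 periportal and 8 Kupffer cell markers 0 were called, while 29.1% of all probes were called. Hepatocyte markers lay at 17.42 to 17.68 and 17.35 to 17.72, near the top of the scale, with Alb at 18.96 in both groups. The part of these shifts in the transporter values was not tested. In RNA of whole liver, fewer cells of a type and less RNA per cell cannot be told apart.

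The targeted gene was lower as labelled. The brightest Mlxipl probe fell by 1.16 on the log2 scale in total ChREBP-KO mice (adjusted p = 8.05e-13) and by 0.45 in ChREBPβ-deficient mice (adjusted p = 0.0152), without overlap in either line. It was the only probe of the array called in ChREBPβ-deficient mice. Another Mlxipl probe had differences of -0.59 and -0.46, and the last had -0.05 and -0.06.

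**Figure D2:**
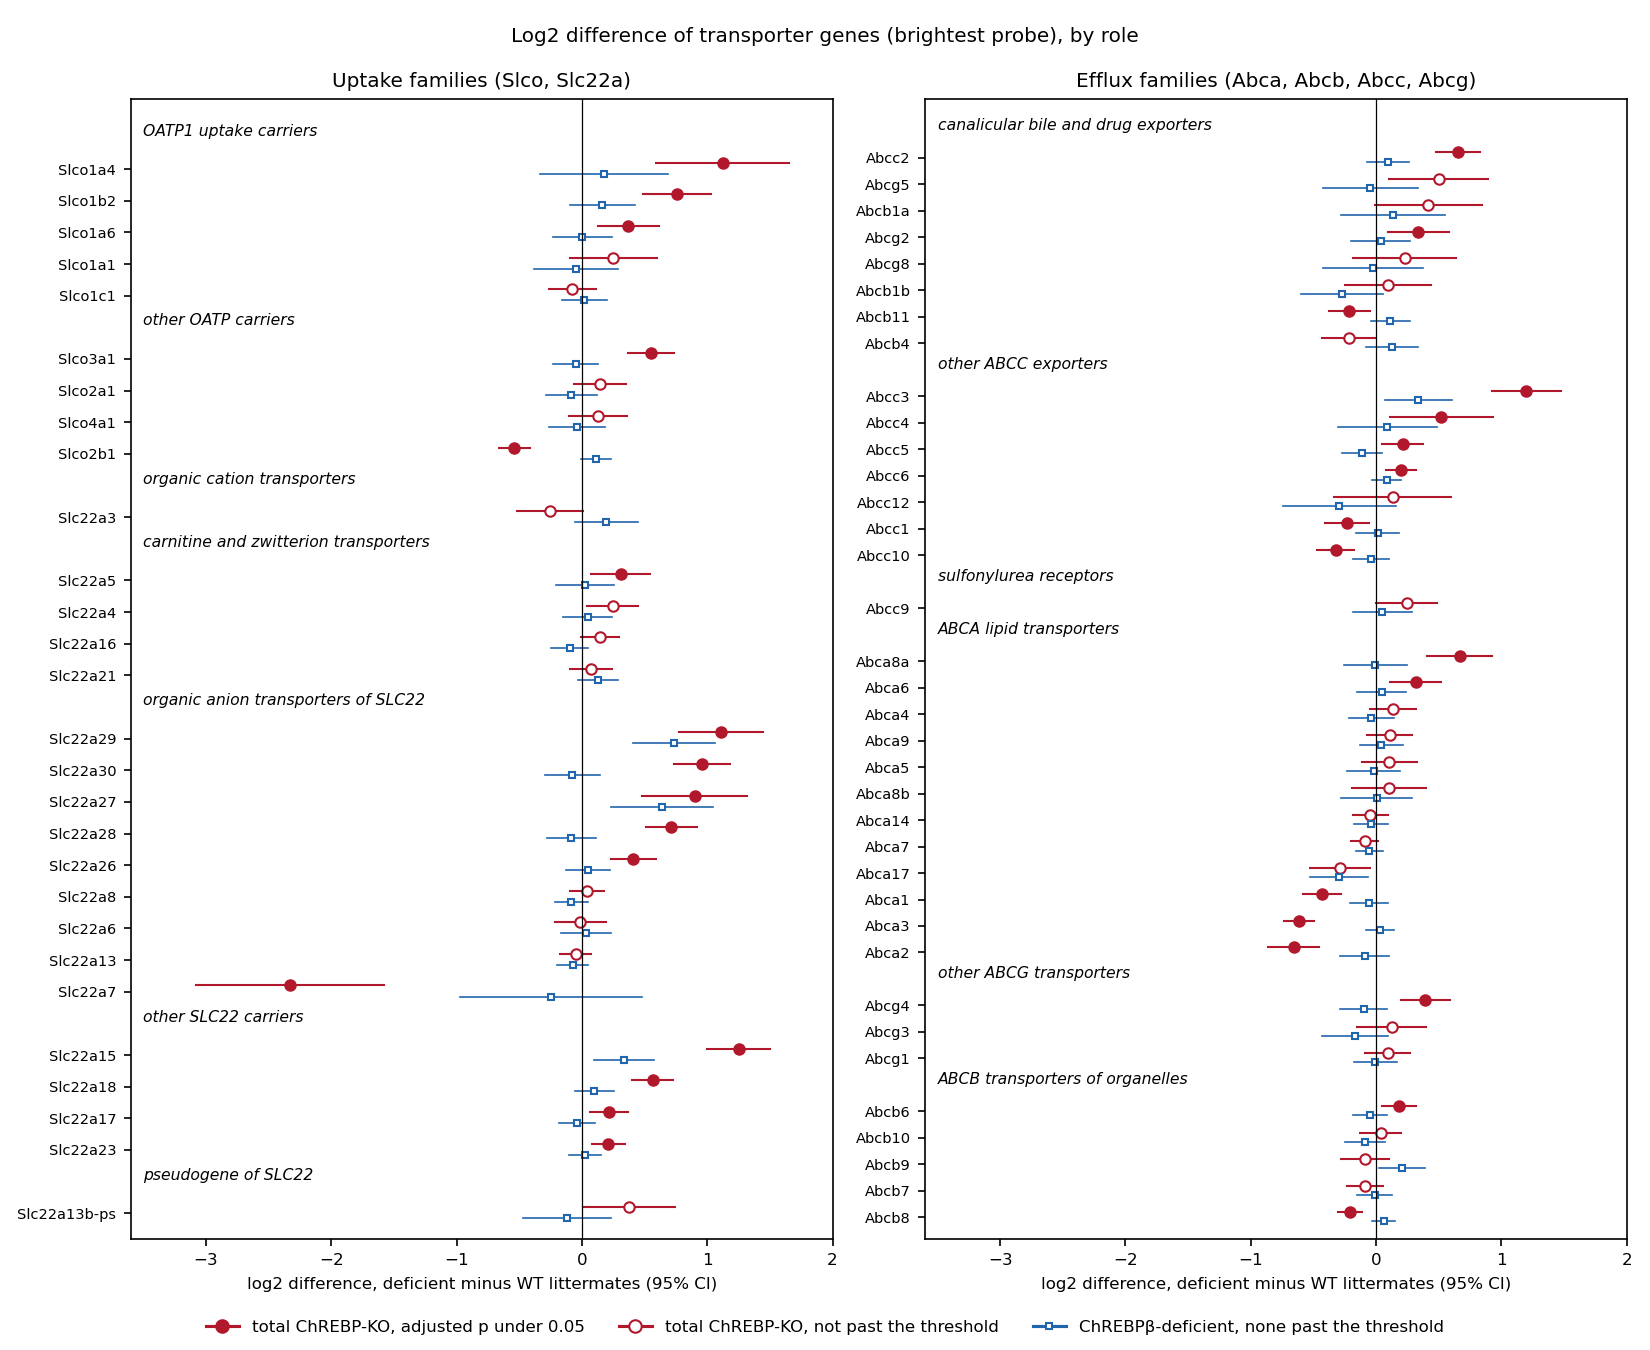
Log2 difference of transporter genes, each read by its brightest probe, in total ChREBP-KO mice (circles, filled where the adjusted p was under 0.05) and ChREBPβ-deficient mice (squares), with 95% confidence intervals and genes grouped by role. Slc22a7 lies farthest to the left at -2.33, Slc22a15 and Abcc3 farthest to the right at 1.25 and 1.20, and no square was called.

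The OATP1 carriers of the chromosome 6 cluster take up bile acids, bilirubin conjugates, steroid conjugates and drugs. Of their 7 probes 4 were higher in total ChREBP-KO mice and 0 were lower, against 14.5% and 14.6% of all probes. Slco1b2, the mouse counterpart of the human OATP1B carriers, had a normalized log2 signal of 15.83 at the lowest, 16.15 at the median and 16.47 at the highest in total ChREBP-KO mice, and of 14.97, 15.48 and 15.82 in their WT littermates. Every knockout value was above every littermate. The log2 difference was 0.76 (SE 0.132, adjusted p = 5.05e-05), a 1.69-fold higher signal, and the second Slco1b2 probe gave 0.77. In the ChREBPβ line the medians were 15.98 and 15.77, with a difference of 0.16 and a 95% interval from -0.10 to 0.42.

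Slco1a4, a carrier of bile acids and digoxin and a known target of PXR, had values of 8.85, 9.42 and 9.88 (lowest, median, highest) in total ChREBP-KO mice and of 7.64, 8.19 and 9.51 in WT littermates. The groups overlapped through WT littermate 2, while the other 7 littermates were at or below 8.28. That library had the high pancreas markers and the lowest pericentral marker level of its group. The difference was 1.12 (SE 0.259, adjusted p = 0.00131). The WT littermates of the ChREBPβ line had a median of 9.58, and the WT littermates of the total line were lower than them by -1.29 on the log2 scale (adjusted p = 0.000566), so the total ChREBP-KO values lay within the range of the other WT group, 8.47 to 10.85.

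Slco1a6 was also higher, by 0.37 (adjusted p = 0.0181). Slco1a1, a carrier that is higher in male than in female liver, did not pass the test. Its median was 12.85 in total ChREBP-KO mice and 12.81 in WT littermates, and its difference of 0.25 (95% interval -0.10 to 0.60, adjusted p = 0.297) became 0.07 without WT littermate 2.

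Among the other OATP carriers, Slco2b1 and Slco3a1 moved in opposite directions. Slco2b1, which carries sulfated steroids and some drugs, had values of 12.40, 12.72 and 12.74 in total ChREBP-KO mice, 12.90, 13.21 and 13.32 in WT littermates, 13.50, 13.66 and 13.78 in ChREBPβ-deficient mice and 13.31, 13.54 and 13.61 in the WT littermates of that line. The total ChREBP-KO values were the lowest of the 4 groups without overlap. The difference was -0.54 (SE 0.0609, adjusted p = 5.28e-08), and the WT littermates of the total line were themselves lower than those of the ChREBPβ line by -0.34 (adjusted p = 0.000188). In the ChREBPβ line the difference was 0.12 (95% interval -0.01 to 0.24). The difference between the effects of the lines was -0.65 (adjusted p = 1.99e-06).

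Slco3a1, an OATP of many tissues that carries prostaglandins, was higher by 0.55 (adjusted p = 2.34e-05) at its brightest probe, and 3 of its 5 probes were called higher. Slco2a1, the prostaglandin transporter, had a difference of 0.15 (adjusted p = 0.3) with medians of 12.63 and 12.35.

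Slc22a3 (OCT3), an organic cation transporter that carries monoamines, had medians of 6.29 in total ChREBP-KO mice and 6.68 in WT littermates. The difference was -0.25 with a 95% interval from -0.52 to 0.01 (adjusted p = 0.15), and the groups overlapped. Of the carnitine and zwitterion transporters 1 of 5 probes was called, while 29.1% of all probes were called. It was a probe of Slc22a5 (OCTN2), the carnitine carrier, with 0.31 (SE 0.116, adjusted p = 0.044). Its call was lost in 10 of the 31 fits that left out 1 array.

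The organic anion transporters of the SLC22 family had 9 of 14 probes higher and 1 lower, against 14.5% and 14.6% of all probes. They held the largest downward difference of the members. Slc22a7 (OAT2), a sinusoidal carrier of organic anions and nucleobase-related compounds, had values of 8.71, 10.17 and 10.98 in total ChREBP-KO mice and of 11.13, 12.35 and 13.42 in WT littermates. Every knockout value was below every littermate. The difference was -2.33 (SE 0.369, 95% interval -3.08 to -1.58, adjusted p = 1.36e-05), a 5.03-fold lower signal. In the ChREBPβ line the medians were 12.39 and 12.74 and the difference was -0.24, with an interval from -0.97 to 0.48. The effects of the lines differed by -2.09 (adjusted p = 0.005). Between the WT groups of the lines the difference was -0.09 (adjusted p = 0.893). Abcc10, an ABCC drug exporter and the nearest other member on the chromosome, at chr17:46440186-46440245, was also lower, by -0.32 (adjusted p = 0.000958).

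Slc22a30 and Slc22a28 are carriers of a rodent group of organic anion transporters on chromosome 19. Slc22a30 had values of 14.74, 15.04 and 15.24 in total ChREBP-KO mice, 13.65, 14.01 and 14.46 in WT littermates, 13.92, 14.25 and 14.55 in ChREBPβ-deficient mice and 14.16, 14.31 and 14.41 in their littermates. The total ChREBP-KO mice were above every mouse of the other 3 groups. The difference was 0.96 (SE 0.11, adjusted p = 7.49e-08), and the other probes of the gene gave 0.78 and 1.02. In the ChREBPβ line it was -0.08 (95% interval -0.29 to 0.14), and the effects of the lines differed by 1.03 (adjusted p = 1.6e-05). Slc22a28 was higher by 0.71 and 0.85 at its 2 probes, the second of which shares most of its bases with a Slc22a30 probe.

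Slc22a29 and Slc22a27 lie between or beside them and were among the dimmest members. Slc22a29 had values of 5.75, 6.06 and 6.34 in total ChREBP-KO mice, 4.51, 4.92 and 5.61 in WT littermates, 6.06, 6.49 and 7.01 in ChREBPβ-deficient mice and 5.17, 5.86 and 6.19 in their littermates. The total ChREBP-KO mice lay above their own littermates but within the range of the ChREBPβ line. The difference was 1.11 (SE 0.166, adjusted p = 5.58e-06), and its size moved with the background handling, from 0.59 with normexp correction to 2.14 with the processed signal. Slc22a27 was higher by 0.90 (adjusted p = 0.00113), with 0.50 and 1.74 under the same settings. In the ChREBPβ line these genes had the smallest p-values of all members, with differences of 0.73 (Slc22a29, adjusted p = 0.439) and 0.64 (Slc22a27, adjusted p = 0.884), which did not pass the test. The WT littermates of the total line were lower than those of the ChREBPβ line by -0.80 and -0.94. Slc22a26 was higher by 0.41 at 1 of 2 probes, and Slc22a8 and Slc22a6, the renal organic anion transporters of the same region, were not called.

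Of the 9 probes of the other SLC22 carriers 8 were higher, against 14.5% of all probes, and 5 of these 9 probes read Slc22a15. Slc22a15, a carrier of zwitterions such as ergothioneine, had values of 8.41, 8.82 and 9.42 in total ChREBP-KO mice and of 7.37, 7.65 and 7.90 in WT littermates, without overlap. The difference was 1.25 (SE 0.122, adjusted p = 3.14e-09), the largest upward difference of the members. Of its 5 probes 4 were called higher, with 0.91, 0.42 and 0.29 at the other 3, while the probe at chr3:101675632-101675691 had -0.06 (adjusted p = 0.808). Slc22a18, an imprinted gene of the family, was higher by 0.57 and 0.60 at its 2 probes, and at both the total ChREBP-KO mice were above every littermate. Slc22a17 and Slc22a23 were higher by 0.22 and 0.21.

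**Figure D3:**
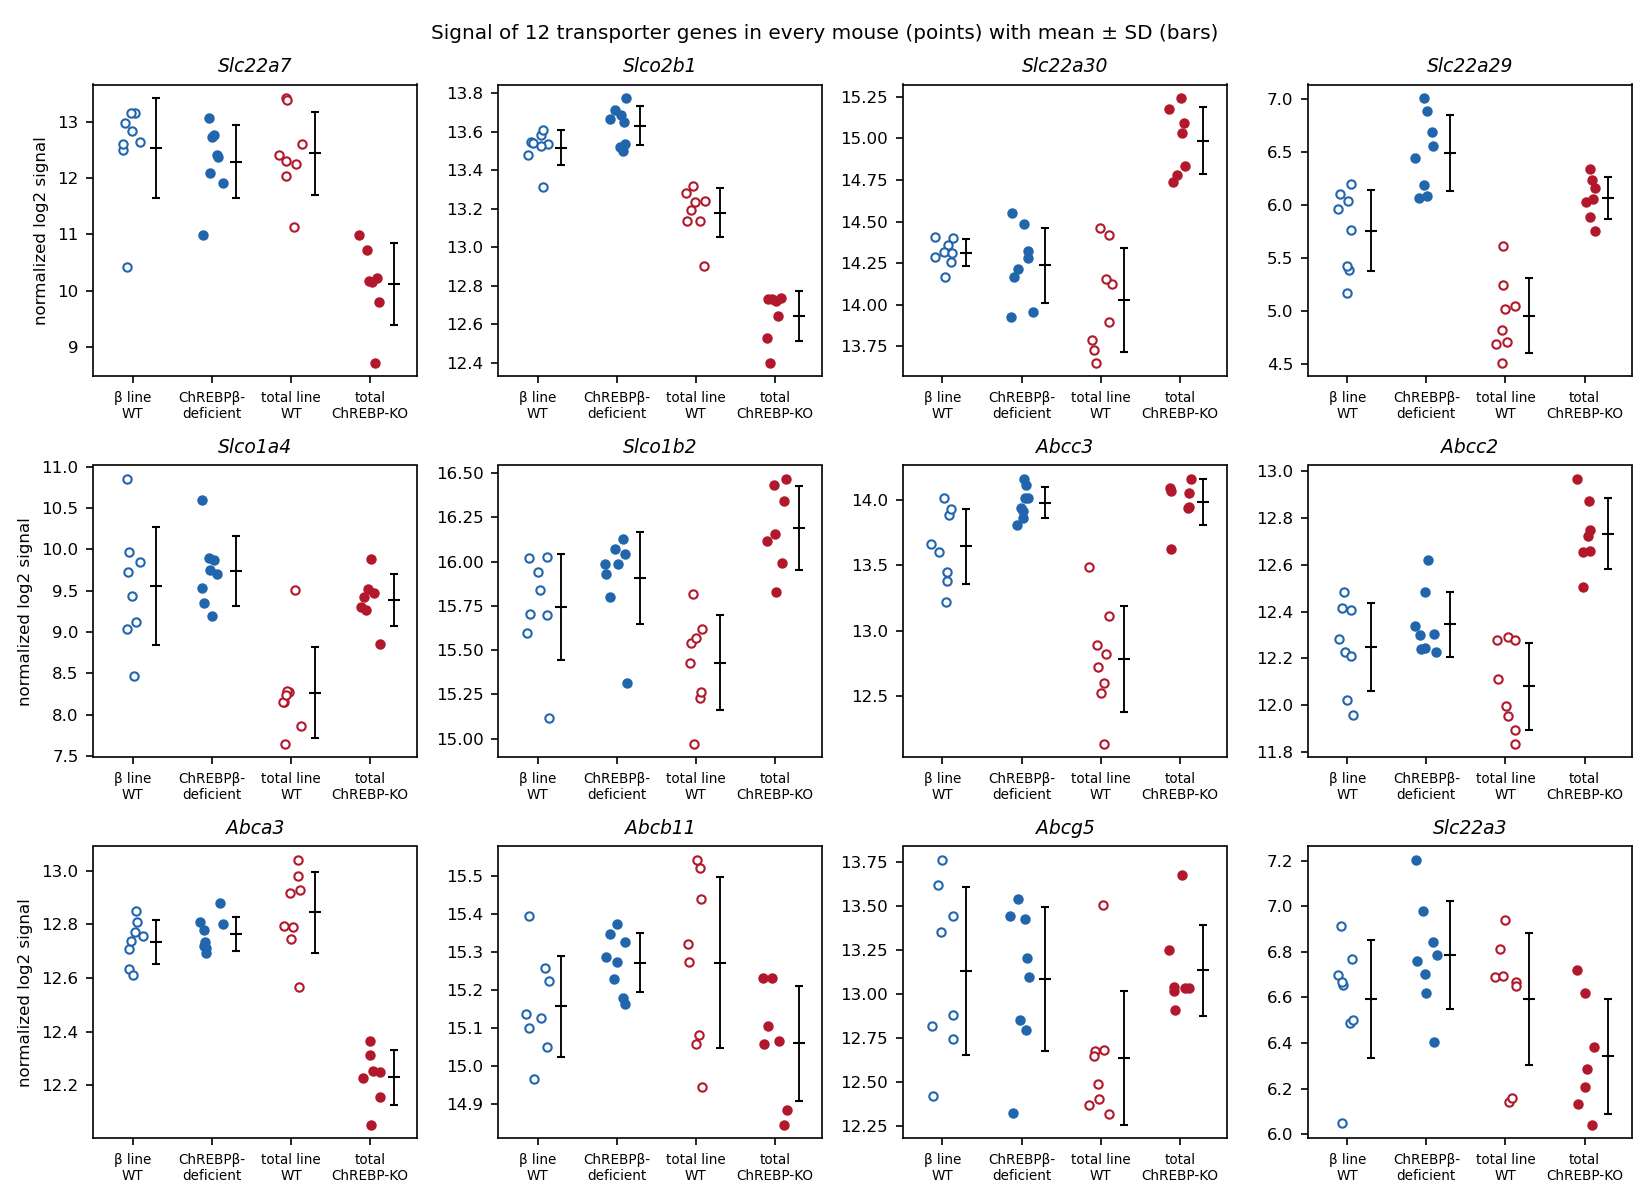
Normalized log2 signal of 12 transporter genes in every mouse (points) with the mean ± SD of each group (bars), for the 8 WT and 8 ChREBPβ-deficient mice of one line and the 8 WT and 7 total ChREBP-KO mice of the other. The vertical axes differ between genes and do not start at 0. Total ChREBP-KO mice stand apart from the other 3 groups in Slco2b1, Slc22a30 and Abca3. They stand apart from their own littermates alone in Slc22a29, Abcc3, Slco1b2 and Slc22a7, and from both WT groups in Abcc2.

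The canalicular exporters, which form bile, had 2 of 10 probes higher and 1 lower, near the share of all probes (14.5% and 14.6%). Abcc2 (MRP2), the exporter of bilirubin glucuronide and other conjugates, had values of 12.51, 12.72 and 12.97 in total ChREBP-KO mice and of 11.83, 12.06 and 12.29 in WT littermates. Every knockout value was above every WT mouse of either line. The difference was 0.65 (SE 0.0858, adjusted p = 7.07e-07). Abcg2 (BCRP), which exports urate and drugs, had a difference of 0.34 (adjusted p = 0.0332) that lost its call in 7 of the 31 fits with 1 array left out.

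Abcb11 (BSEP), the bile salt export pump, was lower by -0.21 (SE 0.0803, adjusted p = 0.0453). Its values were 14.84, 15.07 and 15.23 in total ChREBP-KO mice and 14.94, 15.30 and 15.54 in WT littermates, so the groups overlapped, and 12 of the 31 fits with 1 array left out lost the call. Abcb4, which flips phosphatidylcholine into bile, had a difference of -0.22 (95% interval -0.43 to 0.00, adjusted p = 0.133). Abcb1a, a P-glycoprotein that exports drugs, had 0.42 (adjusted p = 0.142).

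Abcg5 and Abcg8, which together form the sterol exporter of the canaliculus, lie side by side on chromosome 17. Abcg5 had values of 12.91, 13.03 and 13.68 in total ChREBP-KO mice and of 12.32, 12.57 and 13.51 in WT littermates, with a difference of 0.50 (SE 0.194, adjusted p = 0.0502). The overlap came from WT littermate 2, since the other 7 were at or below 12.68. The call was gained in 7 of the 31 fits with 1 array left out. Abcg8 had a difference of 0.23 (adjusted p = 0.44), and 0.37 without that mouse.

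Of the other ABCC exporters 6 of 17 probes were higher and 2 were lower, against 14.5% and 14.6% of all probes. Abcc3 (MRP3), which moves conjugates and bile acids from the hepatocyte back to the blood, had values of 13.63, 14.05 and 14.16 in total ChREBP-KO mice and of 12.13, 12.77 and 13.49 in WT littermates. The groups did not overlap. The difference was 1.20 (SE 0.135, adjusted p = 4.9e-08), a 2.3-fold higher signal, and the second probe gave 1.08. In the ChREBPβ line the values were 13.81, 13.98 and 14.16 in deficient mice and 13.22, 13.63 and 14.01 in littermates, with a difference of 0.34 (95% interval 0.07 to 0.60, adjusted p = 0.989). The effect in total ChREBP-KO mice was larger by 0.87 (adjusted p = 0.00164). The WT littermates of the total line were lower than those of the ChREBPβ line by -0.86 (adjusted p = 3.27e-05), and 6 of the 7 total ChREBP-KO values lay in the range of the ChREBPβ line.

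Abcc4 (MRP4), another sinusoidal exporter of conjugates and bile acids, had a difference of 0.52 (adjusted p = 0.0497), which became 0.32 without total ChREBP-KO mouse 1 and lost its call in 23 of the 31 fits with 1 array left out. Abcc6, needed for ATP release from the liver, was higher by 0.20 and 0.24, and Abcc5, an exporter of cyclic nucleotides, by 0.21 at 1 of its 6 probes. Abcc1, an exporter of glutathione conjugates, was lower by -0.23 (adjusted p = 0.0452) at 1 of its probes and lost its call in 10 of those fits. Abcc12 was not called in either line, and its WT littermates of the total line were higher than those of the ChREBPβ line by 0.79 and 0.96 at 2 probes.

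The ABCA lipid transporters moved both ways, with 5 of 22 probes higher and 5 lower, against 14.5% and 14.6% of all probes. Abca3, which loads phospholipid into lamellar bodies in the lung, had values of 12.05, 12.25 and 12.37 in total ChREBP-KO mice and of 12.57, 12.86 and 13.04 in WT littermates. The total ChREBP-KO mice were below every WT mouse of either line. The difference was -0.61 (SE 0.0572, adjusted p = 1.28e-09), with -0.20 (adjusted p = 0.0593) at a dim second probe. Abca2, a lysosomal lipid transporter, was lower by -0.66 (adjusted p = 7.38e-06).

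Abca1, which passes cholesterol to apolipoprotein A-I, had values of 11.73, 12.02 and 12.32 in total ChREBP-KO mice and of 12.22, 12.40 and 12.67 in WT littermates, and the groups overlapped slightly. The difference was -0.43 (SE 0.0751, adjusted p = 4.71e-05), with -0.35 at the second probe. The WT littermates of the total line were higher than those of the ChREBPβ line by 0.33 (adjusted p = 0.0022), and the ChREBPβ-deficient mice and their littermates had medians of 12.07 and 12.12, near the total ChREBP-KO mice. Abcg1, which also exports cholesterol, had a difference of 0.09 (95% interval -0.09 to 0.27).

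In the cluster of ABCA6-like genes on chromosome 11, Abca8a was higher at both probes (0.67 and 0.70) and Abca6 at both (0.32 and 0.44). Abca8b was the only gene with probes called in both directions, with -0.52 (adjusted p = 0.0123) at chr11:109793891-109793950, 0.10 (adjusted p = 0.653) at chr11:109795589-109795648 and 0.52 (adjusted p = 0.0416) at chr11:109823091-109823150. The direction of Abca8b as a gene was therefore not set by these probes. Of the 29 genes with several members 23 had the same sign at all probes, 11 had all probes called the same way and 8 had 0 called.

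Of the 6 probes of the ABCB transporters of organelles 1 was higher and 2 were lower, against 14.5% and 14.6% of all probes. Abcb8, a transporter of mitochondria, was lower at both probes (-0.21 and -0.14), and Abcb6, which has been linked to porphyrin transport, was higher by 0.18 (adjusted p = 0.0392). Abcg4, a sterol transporter known from brain, was higher by 0.39 (adjusted p = 0.00236) at 1 of 2 probes. The 1 probe of a sulfonylurea receptor, Abcc9, and that of a Slc22a13 pseudogene were not called.

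Members that are neighbours in the genome were compared because several families lie in clusters, here defined as members within 500000 bases of each other on mm9. In chr19:7855791-8700927 the 12 probes of Slc22a26, Slc22a27, Slc22a28, Slc22a29, Slc22a30, Slc22a8 and Slc22a6 held 9 higher and 0 lower calls, all 9 in the first 5 of these genes. In chr6:141518164-142536979 the 8 probes of Slco1c1, Slco1b2, Slco1a4, Slco1a1, Slco1a6 and Abcc9 held 4 higher and 0 lower calls. In chr11:109793891-110170569 the 11 probes of Abca8b, Abca8a, Abca9, Abca6 and Abca5 held 5 higher calls and 1 lower call. Over all probes 14.5% were higher and 14.6% lower. Calls were not shared by all neighbours, since Slco1a1 lies between Slco1a4 and Slco1a6 and was not called. The difference of Slco1a1 (0.25, SE 0.17) was not tested against that of Slco1a6 (0.37).

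**Figure D4:**
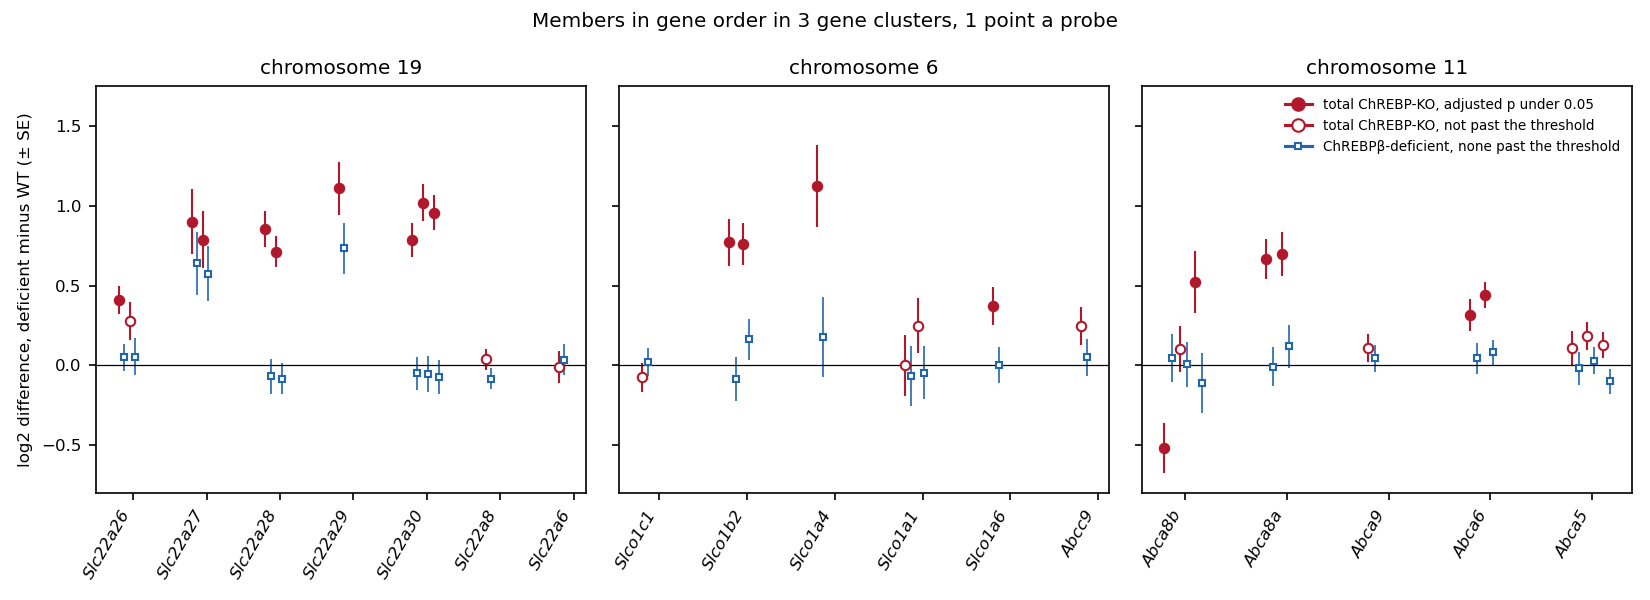
Log2 difference ± SE of each probe in total ChREBP-KO mice (circles, filled where called) and ChREBPβ-deficient mice (squares), with genes in their order along 3 clusters. On chromosome 19 the 5 genes from Slc22a26 to Slc22a30 hold the 9 filled circles, with squares of 0.58 to 0.73 in Slc22a27 and Slc22a29.

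The promoters of the chromosome 19 genes were compared because these genes moved together in total ChREBP-KO mice. Sequences came from RefSeq on GRCm38.p6, a build other than that of the probes, and covered 250 bases before the start. Without gaps, those of Slc22a30 and Slc22a28 were identical at 238 of 244 bases (97.5%), those of Slc22a30 and Slc22a29 at 149 of 226 (65.9%) and those of Slc22a28 and Slc22a29 at 147 of 232 (63.4%). The other pairs among these 5 genes were identical at 31.9% to 39.7%. A stretch of 80 bases is shown for the 3 alike promoters, with the 11 positions that are not the same in all of them in capitals and 69 that are the same.
Slc22a30: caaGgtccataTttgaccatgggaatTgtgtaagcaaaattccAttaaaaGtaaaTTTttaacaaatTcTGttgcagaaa
Slc22a28: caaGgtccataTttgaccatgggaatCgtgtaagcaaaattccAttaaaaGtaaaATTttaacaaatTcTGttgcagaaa
Slc22a29: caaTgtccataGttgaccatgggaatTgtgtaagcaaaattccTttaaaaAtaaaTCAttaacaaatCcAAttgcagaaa
They lie at chr19:8405136-8405215, chr19:8132007-8132086 and chr19:8218907-8218986, all on the minus strand. In ChREBPβ-deficient mice the log2 difference was -0.08 for Slc22a30, -0.08 for Slc22a28 and 0.73 for Slc22a29, and 0 of the 3 were called there.

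Motifs were searched as plain letters on both strands in windows of 300 bases, 250 before and 50 after the start. RefSeq promoters were found for 52 of the 65 genes, 60 windows in all. The E-box CACGTG was in 7 of the 60 (11.7%) and in 7.15% of all 32851 promoters, and the pair of E-boxes 5 bases apart that makes a carbohydrate response element, spelled without mismatches as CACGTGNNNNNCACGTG, was in 0 of either. An exact spelling held by 0 promoters cannot tell members from the rest, and looser spellings were not searched. The nuclear receptor half-site AGGTCA was in 11 windows (18.3%) of 9 genes and in 16.3% of all promoters. These matches are letters in a window and not sites of binding.

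For Slco1b2, Abcc2 and Abcb11, bile-related members that hold the nuclear receptor half-site, 100 bases before the start are shown. Slco1a1, which was not called, also holds the half-site within these 100 bases, and Abcg2 holds it farther from the start. Neither of them is shown, nor are bile-related members without the half-site, such as Abcb4, Abcg5 and Abcg8. Matches to the half-site and the antioxidant response core are in capitals. In Slco1b2 (chr6:141629418-141629517, plus strand) this is the nuclear receptor half-site on the opposite strand, in Abcc2 (chr19:43782208-43782307, plus strand) the nuclear receptor half-site and the antioxidant response core TGACNNNGC, and in Abcb11 (chr2:69342617-69342716, minus strand) that half-site, again on the opposite strand.
Slco1b2: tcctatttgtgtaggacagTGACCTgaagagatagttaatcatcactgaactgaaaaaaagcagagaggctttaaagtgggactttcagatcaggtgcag
Abcc2: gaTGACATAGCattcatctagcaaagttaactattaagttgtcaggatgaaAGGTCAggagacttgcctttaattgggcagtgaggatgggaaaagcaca
Abcb11: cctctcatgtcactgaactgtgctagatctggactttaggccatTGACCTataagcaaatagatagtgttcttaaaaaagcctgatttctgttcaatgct
The core TGACNNNGC was in 8 of the 60 windows (13.3%) and in 12.4% of all promoters. Slco1b2 and Abcc2 were higher and Abcb11 was lower in total ChREBP-KO mice. Among member genes with a promoter, the half-site was in 5 of 19 called higher and 2 of 6 called lower at the brightest probe.

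In ChREBPβ-deficient mice 0 of the 111 members were called, as were 0.00277% of all probes. At an unadjusted p under 0.05 there were 10 members (9.01%), 8 of them higher, against 4.98% of all probes. They were the probes of Abcc3, Slc22a15, Slc22a27 and Slc22a29 (higher, 7 probes), Abcb9 (higher), Abca17 and Abcc12 (lower). Every ChREBPβ-deficient value was above every littermate in 0 members and below in 0, against 0.00832% and 0.0139% of all probes. The median difference of the members was 0.02.

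The effect of total deficiency was compared directly with that of ChREBPβ deficiency. The difference of effects passed the test for 31 members, against 15.1% of all probes. It was positive for 22 of them and negative for 9, against 7.02% and 8.08% of all probes. It was called for Slc22a7, Slco2b1, Slco1b2, Slc22a30, Slc22a28, Slc22a15, Abcc2, Abcc3, Abca1, Abca2 and Abca3 among others. For Slc22a29 (0.38, adjusted p = 0.303), Slc22a27 (0.26, adjusted p = 0.606) and Slco1a4 (0.94, adjusted p = 0.0749) it was not.

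The WT littermates of the lines differed in transporters as well. Of the 111 members 26 were called between them, against 17.0% of all probes. In the WT littermates of the total line 4 were higher and 22 lower, against 8.12% and 8.92% of all probes. With slide as a fixed block 14 were called. Of the 40 members higher in total ChREBP-KO mice, 15 were also called lower in their WT littermates than in the WT littermates of the ChREBPβ line, and in 33 the total ChREBP-KO mean was above the mean of the latter. Of the 12 members lower in total ChREBP-KO mice, all 12 had a mean below that of the ChREBPβ line's littermates. Genetic line, housing and litter cannot be told apart between these WT groups. In 6 members (of Abcc2, Slc22a18, Slc22a28 and Slc22a30) every total ChREBP-KO value was above both WT groups, and in 2 (Abca3 and Slco2b1) below both, against 1.26% and 2.16% of all probes.

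The 31 arrays came from 15 slides and 2 scan days, and 13 slides carried mice of several groups. The 52 members called in total ChREBP-KO mice kept their direction on both days, with 4 knockout and 4 WT arrays on the first and 3 and 4 on the second. They were called on these same arrays, so the shared direction is not an independent test. The sizes differed, with 0.39 and 0.01 for Slc22a17 and 0.57 and 0.01 for the brightest Slc22a5 probe, while Abcc3 had 1.13 and 1.24. Abca1 had -0.62 and -0.21, with -0.60 and -0.05 at its second probe, and Abcg2 had 0.59 and 0.06. Other differences were larger on the second day, as in Slc22a7 (-1.84 and -2.81) and Slco1a4 (0.80 and 1.46). The uptake median was 0.32 and 0.14 on these days, and the efflux median was 0.12 and 0.04. With slide as a fixed block 22 uptake probes were higher and 2 lower, and 12 efflux probes were higher and 7 lower.

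Other genes of bile acid, sterol and drug transport outside these families included 3 of 23 measured genes that were higher and 4 that were lower in total ChREBP-KO mice, near the share of all probes (14.5% and 14.6%), with a median of 0.11. Slc10a1 (NTCP), the main bile acid importer, was not called, but at 18.26 in both groups it lay near the top of the scale, where a difference could be missed. Slc10a2, the sodium-dependent bile acid transporter, was higher by 0.87 and Slc16a10, a carrier of aromatic amino acids and thyroid hormone, by 0.88. Slc51b, a subunit of the basolateral bile acid exporter and a known FXR target, was lower by -1.48, and Slc16a1, the monocarboxylate carrier MCT1, by -1.05. Slc51a and Npc1l1 were not kept by the filter.

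Factors known to control these transporters were examined beside them, with 4 of 23 higher and 4 lower, near the share of all probes (14.5% and 14.6%). Nr1i3 (CAR) was higher by 1.17 (adjusted p = 1.05e-06), Ahr, the aryl hydrocarbon receptor, by 1.24 and Ppara, the fatty acid receptor, by 0.69. Nr1h4 (FXR) was lower by -0.30 (adjusted p = 0.0279), Rxrg by -0.74 and Srebf1, a lipogenic factor, by -0.91. Nr1i2 (PXR), Nr1h3 (LXRα) and Hnf4a were not called.

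The lists of targets below were chosen with earlier results of these data known, so their counts are not an independent test. Of 15 measured genes known as PXR or CAR targets 8 were higher and 0 lower, against 14.5% and 14.6% of all probes. The transporters Slco1a4, Abcc2 and Abcc3 are 3 of them, and among the other 12 genes 5 were higher, with a median of 0.50 and the largest difference in Cyp2b10 (3.21). Of 11 LXR targets 0 were higher and 4 were lower, against 14.5% and 14.6% of all probes. Among the 7 that are not transporters 3 were lower, namely Scd1 (-3.24), Srebf1 (-0.91) and Lpcat3 (-0.47), and the rest were not called. Whether LXR had a part in these differences was not tested. The transporters of this list were Abca1, which was lower, and Abcg1, Abcg5 and Abcg8, which were not called.

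Genes of bile acid synthesis and genes with a sex bias in liver were listed because several transporters differ between the sexes. Of 13 bile acid synthesis genes 6 were higher and 1, Cyp8b1, was lower (-1.92). The shares of all probes, for this and the sex-biased lists, were 14.5% higher and 14.6% lower. These lists too were chosen with earlier results of these data known. Of 14 measured female-biased genes 8 were higher and 1 lower with a median of 0.67, led by Cyp2b9 (3.62) and Cyp2a4 (1.86), and of 16 male-biased genes 3 were higher and 2 lower with a median of 0.02. In ChREBPβ-deficient mice 0 genes of any of these lists were called.

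**Figure D5:**
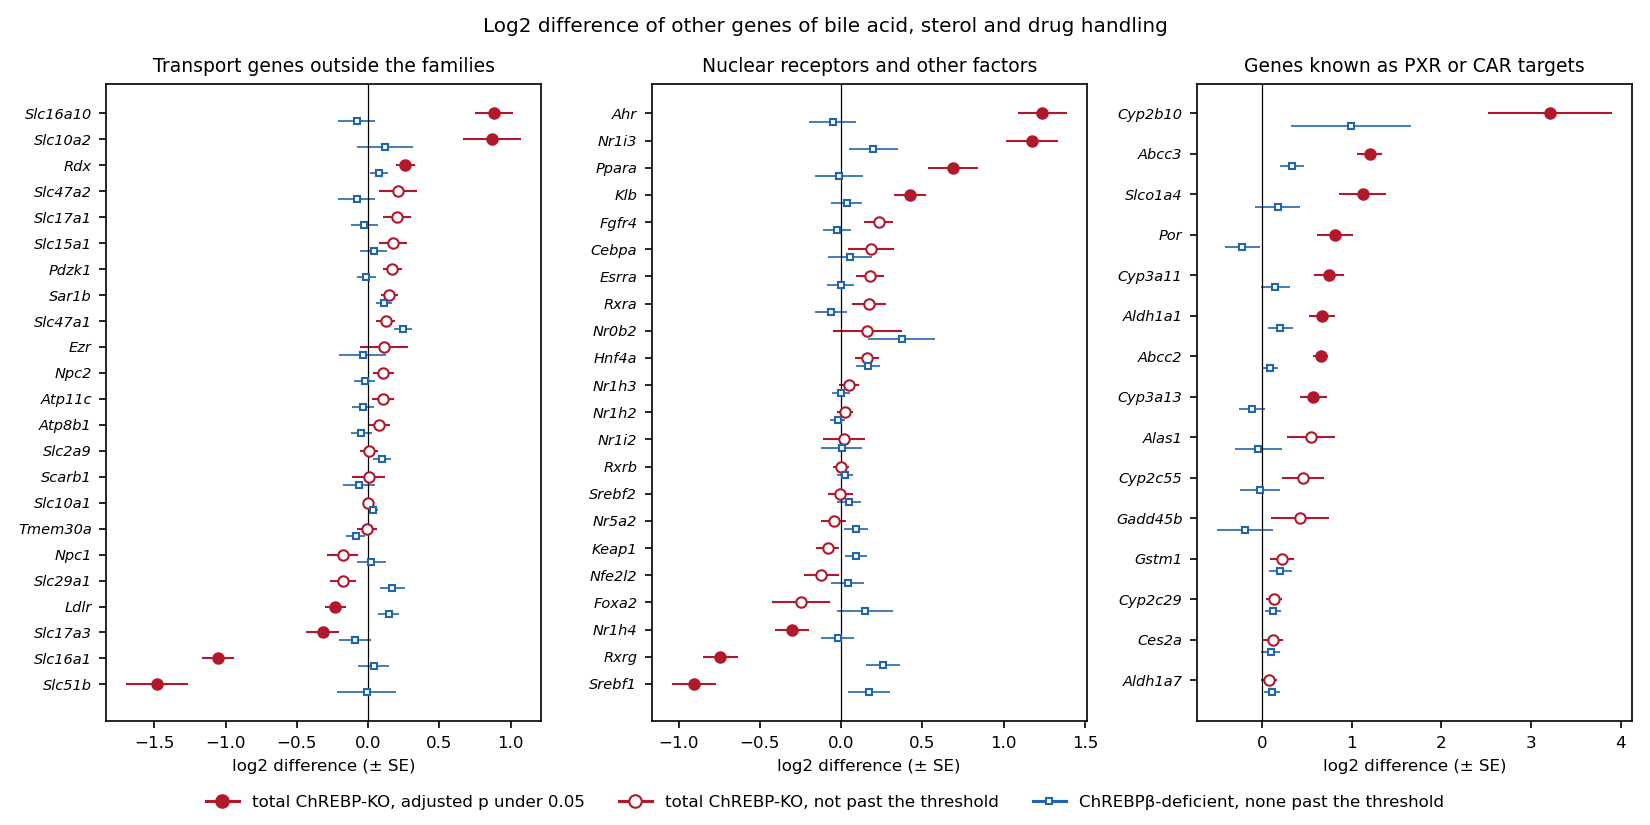
Log2 difference ± SE in total ChREBP-KO mice (circles, filled where called) and ChREBPβ-deficient mice (squares) of transport genes outside the families, of nuclear receptors and other factors, and of genes known as PXR or CAR targets. In the right panel 8 of 15 genes are filled, all to the right of 0, and Slc51b and Slc16a1 lie farthest to the left in the first panel.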

How the data were processed

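Feature Extraction 10.10.1.1 by Agilent made the scanner files that the authors deposited, whose spot intensity values carry no scaling between arrays. A second deposited file holds log2 values. Per the methods, the authors made it from median pixel intensity, weighting spots on import with limma, then normalizing by quantiles with preprocessCore and taking the median over repeated probes. Gene names and mm9 positions come from the array design.

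From the scanner files, log2 of the median intensity was used as it stood, with no background removed. A spot stayed if it had full weight on 26 or more arrays, or on 6 or more of a single group, and the 31 arrays were then quantile normalized. This gave 36059 probes, within 0.137 of the deposited values. The 4 groups entered 1 linear model in R 4.3.3 with limma 3.58.1 (with version 1.17.8 of data.table, and matplotlib 3.10.9 for figures). P-values were adjusted by Benjamini-Hochberg over all probes at 0.05. Each probe was tested on its own. The precision is limited by the 7 or 8 arrays a group. Total ChREBP-KO replicate 3 was not analysed here. The labels name each array as a replicate, and the p-values measure the spread between these mice.

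The transporters and gene lists were chosen with earlier results of these data known. Genes named are liver transporters fixed by name whatever they did, the 5 higher and 5 lower called uptake and efflux genes with the largest difference, the 3 members with the smallest p in ChREBPβ-deficient mice, and called genes of each role or list. Genes outside this rule (Slco1c1, Abcc12, Abca17, Abcb9, Abcc9 and uncalled genes of the lists) were named after their values were seen. A transporter and a factor on these lists are counted but not reported here. Alternatives were other signals, scalings, filters, blocks, tests and left-out arrays. The programs were tested on simulated data.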

Additional observations from a re-analysis of the deposited data

Results flagged for a closer look

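In 14 of 120 tests of 30 named genes in the 4 groups, 1 mouse lay far from the rest of its group by Dixon's criterion, which chance meets in about 1 of 20 groups. WT littermate 2 of the total ChREBP-KO line, the library with the high pancreas markers, was the mouse in 6 of them. Its log2 signal was 11.35 for Slco1a1 (others 12.64 to 12.96), 9.51 for Slco1a4 (7.64 to 8.28), 12.9 for Slco2b1 (13.13 to 13.32), 12.62 for Abcg2 (13.25 to 13.8), 13.51 for Abcg5 (12.32 to 12.68) and 12.47 for Abcg8 (11.08 to 11.54). ChREBPβ-deficient mouse 2 was low in Slco1b2 (15.32, others 15.8 to 16.13) and Abcg2 (13.31, others 13.5 to 13.67). WT littermate 2 of the ChREBPβ line was low in Slco1b2 (15.12, others 15.6 to 16.03) and Slc22a7 (10.42, others 12.49 to 13.15). Single mice also stood apart in Slco2b1 (WT of the ChREBPβ line 8, 13.31), Abcc3 (total ChREBP-KO 7, 13.63), Abca1 (WT of the ChREBPβ line 7, 11.87) and Abcg1 (WT of the total line 5, 9.07). Within its group, WT littermate 2 of the total line had the lowest pericentral (11.55) and the highest periportal marker level (13.97). The same held for ChREBPβ-deficient mouse 2 (12.05 and 14.09), WT littermate 2 of the ChREBPβ line (11.98 and 14.41) and total ChREBP-KO mouse 7 (12.09 and 14.01). Pancreas markers in the latter mice stood at 10.14, 10.36 and 10.51. The part of these levels in the outlying values was not tested.

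In 13 named genes the effect of total deficiency differed from that of ChREBPβ deficiency by the interaction test of limma. The log2 difference of effects was positive for Slc22a30 (1.03, adjusted p = 1.6e-05), Slc22a15 (0.92, adjusted p = 0.000298), Abcc3 (0.87, adjusted p = 0.00164), Abca8a (0.67, adjusted p = 0.00867), Slco1b2 (0.60, adjusted p = 0.025), Abcc2 (0.56, adjusted p = 0.00135) and Abcg4 (0.49, adjusted p = 0.011). It was negative for Slc22a7 (-2.09, adjusted p = 0.005), Slco2b1 (-0.65, adjusted p = 1.99e-06), Abca3 (-0.64, adjusted p = 8.91e-07), Abca2 (-0.57, adjusted p = 0.0048), Abca1 (-0.38, adjusted p = 0.0122) and Abcb11 (-0.33, adjusted p = 0.044).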

How the results depend on the processing

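The values were recomputed under 17 other settings and 31 fits with 1 array left out. The calls of 22 of 30 named genes held under all of the settings that apply to a single gene, left-out arrays aside. Requiring a fold of at least 1.5 left 19 members higher and 3 lower (uptake 14 and 1, efflux 5 and 2), 17 with a called difference of effects and 9 called between the WT groups. With 1 probe a gene these were 23 higher (uptake 14, efflux 9), 19 and 16. With probes passing on all arrays 16 uptake members were higher and 14 members were called between the WT groups, as were 14 with slide as a fixed block. The exact Mann-Whitney test, leaving out the 3 arrays with intestinal, cholangiocyte or pancreas markers, and leaving out these and the 2 with adipocyte markers (both chosen after seeing the data) each left 6 efflux members lower. Fewer members enter, or a further threshold is set, in the fold, 1-probe and all-array settings, and for the other settings the cause was not tested.

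With 1 array left out the higher members numbered 33 to 40, the lower 9 to 14, those called in ChREBPβ-deficient mice 0 to 0, the differences of effects 26 to 33 and the calls between WT groups 23 to 33. Uptake members higher numbered 22 to 26 and lower 2 to 2, and efflux members higher 10 to 15 and lower 7 to 12. The medians were 0.22 to 0.29 (uptake) and 0.03 to 0.11 (efflux).

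The labels do not say that a replicate number marks a shared litter or day. For this reason the numbers were not taken as pairs. The correlations of same-numbered mice ran from -0.21 to 0.24 in the total line, with 2 of 7 pairs over 0.1. In the ChREBPβ line they ran from -0.16 to 0.53, with 6 of 8 over 0.1. Whether same-numbered mice of the ChREBPβ line shared a litter or day was not tested. The replicate block gives each number 1 effect over both lines, so it does not model pairs within a line. With the replicate block 40 members were higher, 12 lower and 0 called in ChREBPβ-deficient mice, 35 had a called difference of effects and 31 were called between WT groups. Slc22a5 lost its call (0.31, adjusted p = 0.0599) and Abcg5 gained one (0.52, adjusted p = 0.029). Genes near the threshold (Slc22a5, Abcb11, Abcc1, Abcc4, Abcc6, Abcg2, Abcg5, Abcb4) changed their call under at least 1 setting, and the dim Slc22a27 and Slc22a29 changed in size with the background correction.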
